A study of Drosophila melanogaster with 16 samples.

Results

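The genes that encode pseudouridine-guide small nucleolar RNAs (snoRNAs) were examined for binding of Psi, RNA Pol and Myc in wing imaginal discs. All annotated genes whose symbol begins with snoRNA:Psi were taken from the Ensembl annotation of BDGP6, and there were 106 of them among 23973 annotated features. The symbol refers to pseudouridine, the modified base whose sign is psi, and not to the Psi protein. Binding was profiled by targeted DamID (TaDa), in which a protein carries Dam, a methylase from bacteria that marks the adenine of GATC sites near where the protein binds, and the marked fragments are sequenced. Wing discs of female mid-third instar larvae carried UAS constructs for Psi-Dam (3 samples), Pol-Dam (3 samples, the shared RNA polymerase subunit RpII18), Myc-Dam (3 samples) or Dam alone (Dam-only, 7 samples). Every group also carried the scalloped-GAL4 (sd-GAL4) driver and temperature-sensitive GAL80, so the profiles report the cells of the disc in which this driver is active. Eggs were laid at 25°C within 4 h, larvae grew at 18°C for 7 days, and a shift to 29°C for 24 h induced the constructs. The Psi-Dam and Pol-Dam transgenes were inserted at the attP2 site on chromosome 3. Each fusion has 1 deposited list of peaks, called by the authors at an FDR of 1% on the average of its 3 samples over Dam-only. No value below therefore has a replicate error, no test between samples was possible, and the sequencing depth behind a peak is unknown. A peak score ranks peaks within its own list only. Dam-only sample 1 served 2 Psi-Dam samples and 1 Pol-Dam sample, so the Psi and RNA Pol lists are not independent.

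Pseudouridine guides belong to the H/ACA class of snoRNA. Such an RNA folds into hairpins joined by a hinge that carries the H box, ends in an ACA triplet just before its 3′ end, and pairs with ribosomal RNA on both sides of the uridine to be modified. It works in a particle with the pseudouridine synthase dyskerin (Nop60B in flies) and the proteins NHP2, Nop10 and Gar1. Most snoRNA genes of animals have no promoter of their own: they lie in introns of host genes and are released when the host transcript is spliced and trimmed. In *Drosophila* many hosts encode ribosomal proteins or other parts of the translation machinery, and a host can hold a row of similar copies. The symbol names the ribosomal RNA (18S or 28S) and the position guided, with a letter for each copy.

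The members carried the letters of their class. They were 124 to 268 bases long, with a median of 140. A scan of the transcribed strand found the letters ACA beginning in the last 10 bases of 103 of 106 members (97.2%), and in 98 of these exactly 3 bases followed the triplet. Of 77 methylation-guide snoRNA genes (symbol snoRNA:Me, the box C/D class), 4 did so (5.19%), and of 47727 genome windows of 140 bases, 12.9%. The H box letters ANANNA, centred between 35% and 65% of the length, were found in 100 members (94.3%), against 41.6% of the methylation guides and 54.9% of the windows. Both sets of letters were present in 97 members (91.5%), against 2.60% of the methylation guides and 7.54% of the windows. The stretches searched for the ACA and for the H box letters do not overlap in the members, and a match is a description of letters only.

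**Figure D1:**
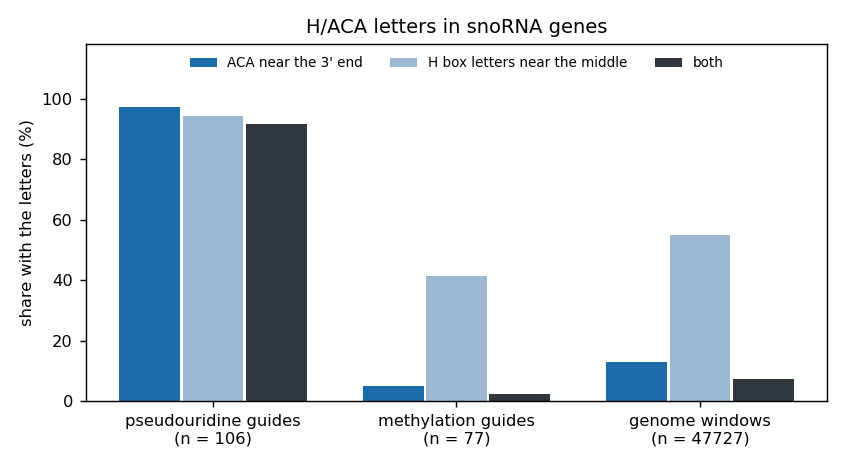
Share of sequences (%, vertical axis) with ACA beginning in the last 10 bases, with the H box letters ANANNA near the middle, and with both, for 106 pseudouridine guides, 77 methylation guides and 47727 genome windows of 140 bases. Both sets of letters occur in 91.5% of the pseudouridine guides, 2.60% of the methylation guides and 7.54% of the windows.

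The following 8 sequences are the members nearest the centre of the best peak at the loci with the highest Psi or RNA Pol scores. They are shown because the peak values below turn on these loci, and because they let the guide be seen at the size at which DamID can and cannot place it. Capitals mark the match to the H box letters nearest the middle and the ACA triplet near the 3′ end, and each sequence is the DNA of the transcribed strand, 5′ to 3′, from the Release 6 reference.
snoRNA:Psi18S-301: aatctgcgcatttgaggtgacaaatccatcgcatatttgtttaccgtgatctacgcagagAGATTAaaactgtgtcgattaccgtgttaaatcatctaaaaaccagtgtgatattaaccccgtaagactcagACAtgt
snoRNA:Psi28S-291: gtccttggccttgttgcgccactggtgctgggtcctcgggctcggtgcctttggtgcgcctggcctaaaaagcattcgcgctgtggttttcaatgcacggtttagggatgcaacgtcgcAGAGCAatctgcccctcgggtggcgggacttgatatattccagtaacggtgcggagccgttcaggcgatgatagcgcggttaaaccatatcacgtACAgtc
snoRNA:Psi28S-2442a: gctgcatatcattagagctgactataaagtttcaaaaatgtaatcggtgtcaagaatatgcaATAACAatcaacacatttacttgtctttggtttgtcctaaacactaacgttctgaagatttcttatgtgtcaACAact
snoRNA:Psi28S-2996: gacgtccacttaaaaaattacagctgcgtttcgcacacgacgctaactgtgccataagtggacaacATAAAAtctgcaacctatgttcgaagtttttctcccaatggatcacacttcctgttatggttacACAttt
snoRNA:Psi28S-3305c: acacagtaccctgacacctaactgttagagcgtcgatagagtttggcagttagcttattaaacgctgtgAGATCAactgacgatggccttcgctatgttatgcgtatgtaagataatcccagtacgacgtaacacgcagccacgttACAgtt
snoRNA:Psi28S-3405a: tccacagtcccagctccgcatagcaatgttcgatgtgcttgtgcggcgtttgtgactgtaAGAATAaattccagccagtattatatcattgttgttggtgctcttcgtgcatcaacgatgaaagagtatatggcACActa
snoRNA:Psi18S-996: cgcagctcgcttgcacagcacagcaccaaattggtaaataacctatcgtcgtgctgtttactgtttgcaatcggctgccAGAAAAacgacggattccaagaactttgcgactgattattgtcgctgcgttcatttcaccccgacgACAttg
snoRNA:Psi28S-1232: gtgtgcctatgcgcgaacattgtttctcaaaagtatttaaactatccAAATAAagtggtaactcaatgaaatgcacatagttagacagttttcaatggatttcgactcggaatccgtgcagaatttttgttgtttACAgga
In BDGP6 coordinates, snoRNA:Psi18S-301 lies at chr3R:20574906-20575043 on the plus strand outside any host gene. snoRNA:Psi28S-291 lies at chr3R:11223571-11223790 on the plus strand in an intron of *RpL3*, and snoRNA:Psi28S-2442a at chr3R:5598638-5598777 on the minus strand in an intron of *kra*. snoRNA:Psi28S-2996 lies at chr2L:22535458-22535593 on the minus strand in an intron of *RpL5*. In introns of *Hrb98DE*, on the plus strand, snoRNA:Psi28S-3305c lies at chr3R:28603371-28603522 and snoRNA:Psi28S-3405a at chr3R:28601529-28601668. snoRNA:Psi18S-996 lies at chr3L:261803-261953 on the minus strand in an intron of *Tudor-SN*, and snoRNA:Psi28S-1232 at chrX:6743675-6743815 on the minus strand in an intron of *RpL17*. All 8 have 3 bases after the ACA triplet, and 3 of them (Psi18S-301, Psi28S-2996 and Psi28S-3305c) hold a GATC site.

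The members fell into 32 loci. Of the 106 members, 101 lay inside a host gene on the same strand (27 hosts), and each of these 101 lay in an intron of every host transcript that spanned it. The other 5 lay outside any host on their strand and formed a locus each. Ribosomal protein genes were 13 of the hosts and held 40 members. The members guide 51 positions, 18 in 18S rRNA (46 members) and 33 in 28S rRNA (60 members). There were 19 loci with a single member, whereas *Arpc2*, *RpS5a* and *dom* held 17, 14 and 12 members. Of the 51 positions, 19 had 2 or more copies, 74 genes in all, and the copies of a position were 53.2% to 99.3% identical in pairwise alignment (median 73.7% over 152 pairs). Only the copies for 18S position 525 were split between hosts, with 10 in *Arpc2* and 1 in *Msp300*.

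Psi was enriched at a minority of the members, concentrated in 2 hosts. A significant Psi peak lay within 1 kb of 22 of 106 members (20.8%), against 6.78% of all annotated features, and overlapped 15 of them (14.2%, against 4.96% of all features). RNA Pol peaks lay within 1 kb of 16 members (15.1%, against 10.9% of all features) and Myc peaks within 1 kb of 25 (23.6%, against 14.6%). For features without transposable elements and pseudogenes, the shares within 1 kb were 8.38% for Psi, 13.3% for RNA Pol and 17.6% for Myc. An overlap with the gene itself was found for 7 members with RNA Pol (6.60%, against 8.36% of all features) and for 11 with Myc (10.4%, against 10.8%). For RNA Pol and Myc, the shares of overlapped members were thus near the background. Neighbouring members share peaks, so these shares do not count independent events.

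Counted by locus, the lists kept the order they had by member. Of 32 loci, 9 had a Psi peak within 1 kb of a member, 7 an RNA Pol peak and 14 a Myc peak. Of 37 methylation-guide loci, 11, 8 and 15 did. Loci have no counterpart among all annotated features, so these counts have no background share. In all, 38 members in 17 loci had a peak of at least 1 list and 68 had none, a count not made over all features. Peaks of all 3 lists lay within 1 kb of members of *RpL5* and *Hrb98DE*. Psi and RNA Pol without Myc were found at *kra*, and Psi and Myc without RNA Pol at *RpL36A*, *Uhg4*, *RpL3*, *RpL22* and snoRNA:Psi18S-301. RNA Pol and Myc without Psi were found at *pAbp*, *RpS16* and *Tudor-SN*, and Myc alone at *Nop60B*, *RpS29*, *RpS20* and *RpS7*. RNA Pol alone was found at *RpL17*, and Psi alone at *lncRNA:CR42491*, a non-coding gene within the span of *RpL22*, whose member lay 1042 bp from a Myc peak. These combinations are by locus. Taken singly, 8 members had Psi alone, and all but that of *lncRNA:CR42491* were in *kra* and *Hrb98DE*.

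**Figure D2:**
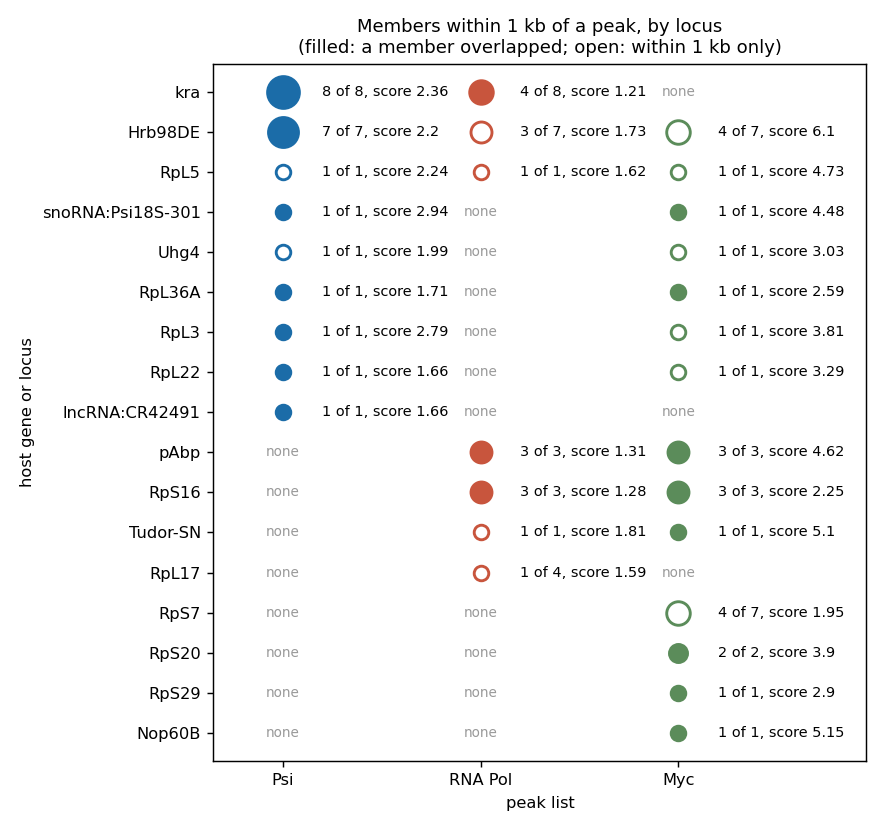
The 17 loci with a peak within 1 kb of a member (rows) in the Psi, RNA Pol and Myc lists (columns), with the number of members within 1 kb, the number of members of the locus and the best peak score, comparable within a column only. Circle area grows with the number of members within 1 kb, filled circles have a member overlapped by a peak, and open circles have none overlapped. Of the 9 loci with a Psi peak, only *kra* and *Hrb98DE* hold more than 1 member, and there every member is within 1 kb. RNA Pol reaches all members of *pAbp* and *RpS16*, and part of those of *kra*, *Hrb98DE* and *RpL17*.

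*kra*, which encodes a regulator of translation, held 8 members that guide 28S rRNA, all within 1 kb of a Psi peak. Its Psi peak nearer the gene start (chr3R:5597290-5600271, score 2.36, rank 79 of 1710, FDR 4.71e-07) overlapped 4 members, Psi28S-2442a, Psi28S-2442b, Psi28S-3186 and Psi28S-3571. The other (chr3R:5594742-5596962, score 1.88, rank 750) overlapped the remaining 4, Psi28S-3091a, Psi28S-3091b, Psi28S-3385a and Psi28S-3385b. Each member thus lay inside a Psi peak. An RNA Pol peak (chr3R:5597944-5601874, score 1.21, rank 833 of 1568) covered the annotated start of *kra* and overlapped 3 members, Psi28S-2442a, Psi28S-2442b and Psi28S-3186, and Psi28S-3571 lay 205 bp from it. No Myc peak lay within 1 kb of any member there.

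*Hrb98DE* encodes an RNA-binding protein of the hnRNP A/B family. Its 7 members guide 28S positions 3405 (4 copies) and 3305 (3 copies). All lay within 1 kb of a Psi peak from 28602536 to 28604130 on chromosome 3R, with a score of 1.59 (rank 1330 of 1710, FDR 0.00341). This peak overlapped Psi28S-3405d and Psi28S-3305c and lay 47 to 868 bp from the other 5. A further Psi peak (score 2.2, rank 222) lay 697 bp beyond Psi28S-3305c. At an FDR limit of 0.1% only this further peak remained, and of the members only Psi28S-3305c had a Psi peak within 1 kb. The RNA Pol peak (score 1.73, rank 104 of 1568) and the Myc peak (score 6.1, rank 5 of 1951) covered the start of *Hrb98DE* instead, and overlapped none of the members. They lay within 1 kb of the 3 and 4 members nearest that start. The 4 copies for position 3405 were 87.2% to 95.7% identical, yet Psi28S-3405a was 589 bp from the RNA Pol peak and 868 bp from the Psi peak, whereas Psi28S-3405d lay inside the Psi peak.

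**Figure D3:**
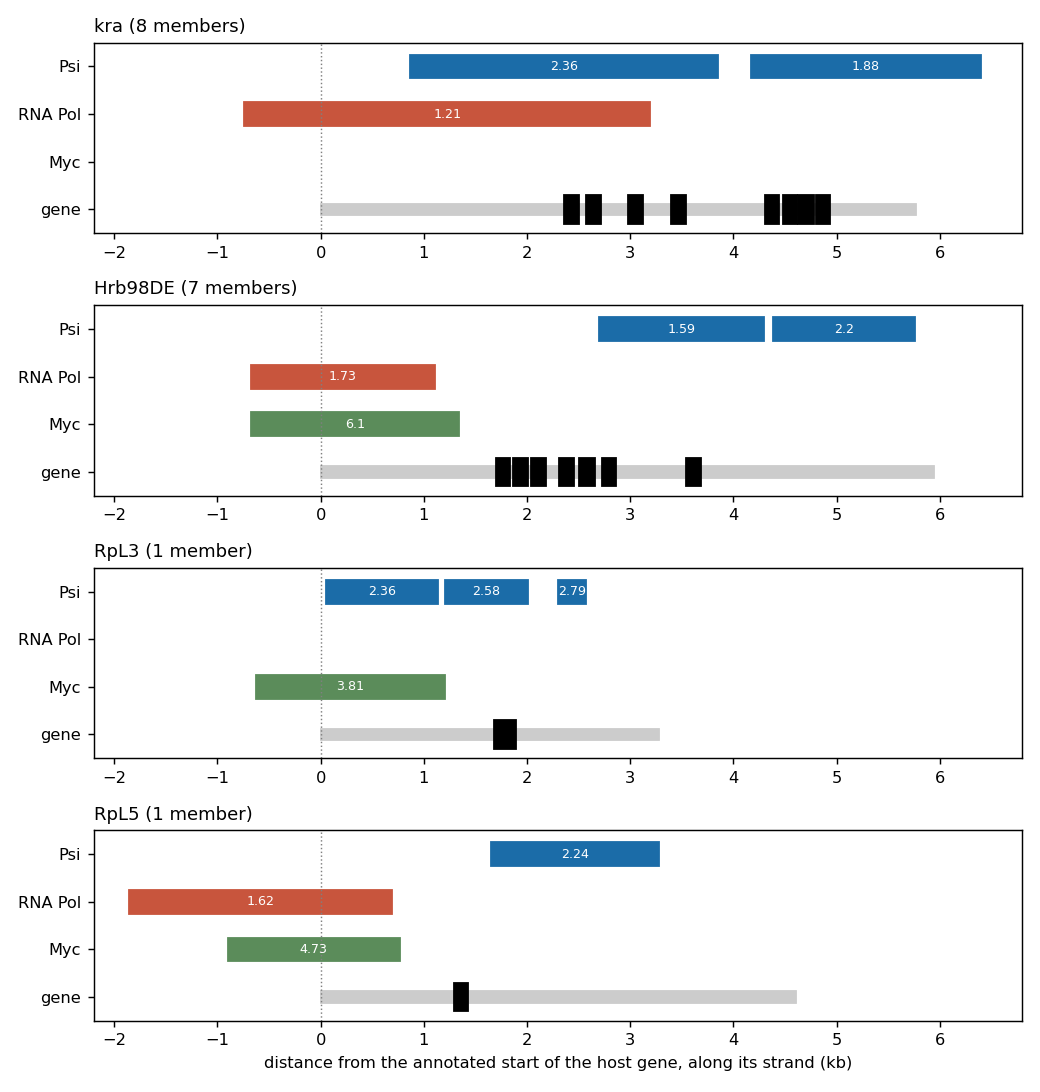
Peaks within 1 kb of members in 4 hosts, drawn to scale along the strand of the host, with the distance from its annotated start (kb) on the horizontal axis. Grey bars are host genes, black boxes are members, and coloured bars are peaks with their scores. In *kra*, *Hrb98DE* and *RpL5* the RNA Pol peak covers the host start and the first Psi peak begins 865, 2702 and 1650 bp downstream of it. In *RpL3*, with no RNA Pol peak drawn, the first Psi peak begins 51 bp downstream of the start.

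Ribosomal protein hosts with Psi peaks had a single such member each. *RpL3*, a protein of the large ribosomal subunit, holds Psi28S-291, which lay wholly inside a Psi peak (chr3R:11223095-11223903, score 2.58, rank 18 of 1710). Psi peaks on either side of it, 544 bp and 404 bp from the member, scored 2.36 and 2.79 (rank 10). No RNA Pol peak lay within 1 kb of this member, and a Myc peak (score 3.81, rank 366 of 1951) ended 476 bp from it. *RpL36A* holds Psi28S-2648, inside a Psi peak of score 1.71 and inside a Myc peak of score 2.59, which ranked 1073 and 1249 in their lists. At *RpL5*, Psi28S-2996 lay between peaks and in none: 224 bp from a Psi peak (score 2.24, rank 180), 598 bp from an RNA Pol peak (score 1.62, rank 190) and 526 bp from a Myc peak (score 4.73, rank 50). Within the span of *RpL22*, Psi18S-531 (assigned to *lncRNA:CR42491*, the shortest gene that holds it) and Psi28S-2179 lay in the same Psi peak (score 1.66, rank 1181). Psi28S-2179 was 190 bp from a Myc peak (score 3.29).

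The highest Psi score at any member was at snoRNA:Psi18S-301, which has no host gene on its strand. Its Psi peak (chr3R:20573405-20575874) scored 2.94 at rank 7 of 1710 (FDR 9.76e-11), and its Myc peak, which shares the left edge, scored 4.48 at rank 94 of 1951. The coding genes within 1 kb of this Psi peak were *CG5191* and *TFAM*, which encodes the mitochondrial transcription factor A. The Psi and Myc peaks both overlap *TFAM*, which lies 202 bp from the snoRNA gene on the opposite strand. The nearest RNA Pol peak was over 1 kb away. Of the other 4 members outside a host, none had a peak of any list within 1 kb. Psi28S-2949 lies in *Uhg4*, a non-coding snoRNA host, 624 bp from a Psi peak (score 1.99, rank 536) and 418 bp from a Myc peak (score 3.03) on its other side.

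At *pAbp*, *RpS16* and *Tudor-SN*, RNA Pol and Myc peaks lay at members where no Psi peak lay within 1 kb. *pAbp* encodes the cytoplasmic poly(A)-binding protein and holds Psi18S-1347a, b and c. An RNA Pol peak (score 1.31) and a Myc peak (score 4.62, rank 61) with identical edges overlapped Psi18S-1347a and ended 97 and 276 bp short of Psi18S-1347b and Psi18S-1347c. The 3 members of *RpS16*, Psi28S-1175a, b and c, lay wholly inside an RNA Pol peak (score 1.28) and inside a Myc peak (score 2.25). These 3 are 81.8% to 88.7% identical and lie in a single GATC interval of 720 bp, so DamID cannot separate them. In *Tudor-SN*, Psi18S-996 lay inside a Myc peak (score 5.1, rank 20) and 949 bp from the RNA Pol peak with the highest score at any member (1.81, rank 71 of 1568). At *RpL17*, Psi28S-1232 was 539 bp from an RNA Pol peak (score 1.59), and the other 3 members were over 1 kb from it.

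Myc peaks without Psi or RNA Pol lay at 8 members. Psi18S-1820, in an intron of *Nop60B*, which encodes the pseudouridine synthase that H/ACA snoRNAs guide, lay inside a Myc peak of score 5.15 (rank 15 of 1951). An RNA Pol peak lay 1090 bp from Psi18S-1820, just beyond the limit. Psi18S-1275 in *RpS29* (score 2.9) and Psi18S-1295 and Psi28S-2562 in *RpS20* (score 3.9) were likewise inside Myc peaks. In *RpS7*, 4 of 7 members lay 262 to 843 bp from a Myc peak of score 1.95, and the other 3 lay beyond 1 kb.

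The 15 loci with no peak of any list within 1 kb held 62 members, a count with no share over all features beside it. The hosts with most members were among them: *Arpc2*, a subunit of the Arp2/3 actin complex, *RpS5a*, a small subunit ribosomal protein, and *dom*, a chromatin remodelling ATPase, together held 43 members. For the members of *Arpc2*, the nearest RNA Pol and Myc peaks were 6.26 kb away and the nearest Psi peak was 121 kb away. For *RpS5a* the nearest peak was 17.9 kb away (RNA Pol), and for *dom* 13.0 kb (Myc). *Sf3b3*, *CG10576* and *RpS4*, with 3, 4 and 3 members, also had none at their members, nor had the single members of *RpL11*, *RpL10Ab*, *tou*, *Msp300* and *CG3902*. Elsewhere in the host gene, *tou* carried Psi and RNA Pol peaks, *Msp300* a Myc peak and *CG3902* peaks of all 3 lists. Among members with no peak of any list within 1 kb, 3 lay nearest to one. They were Psi18S-1377d of *RpS7* (1010 bp from a Myc peak), Psi28S-2566 of *CG3902* (1012 bp from a Psi peak) and Psi28S-3436b of *RpL17* (1094 bp from an RNA Pol peak). The lists hold only peaks that passed the FDR, so a weaker signal at these members cannot be read from them.

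Over all 106 members, the median distance to the nearest peak was 25.6 kb for Psi, 10.7 kb for RNA Pol and 5.91 kb for Myc, against 43.5, 27.9 and 18.5 kb for all annotated features. Within 10 kb, 68.9% of members had a Myc peak and 49.1% an RNA Pol peak, against 36.8% and 28.1% of all features. Members of a host lie at similar distances, so these shares and medians turn in part on a few large hosts. The 17 members of *Arpc2* were all 6.26 to 9.84 kb from an RNA Pol and a Myc peak. The Psi median falls among the members of *RpS5a*.

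**Figure D4:**
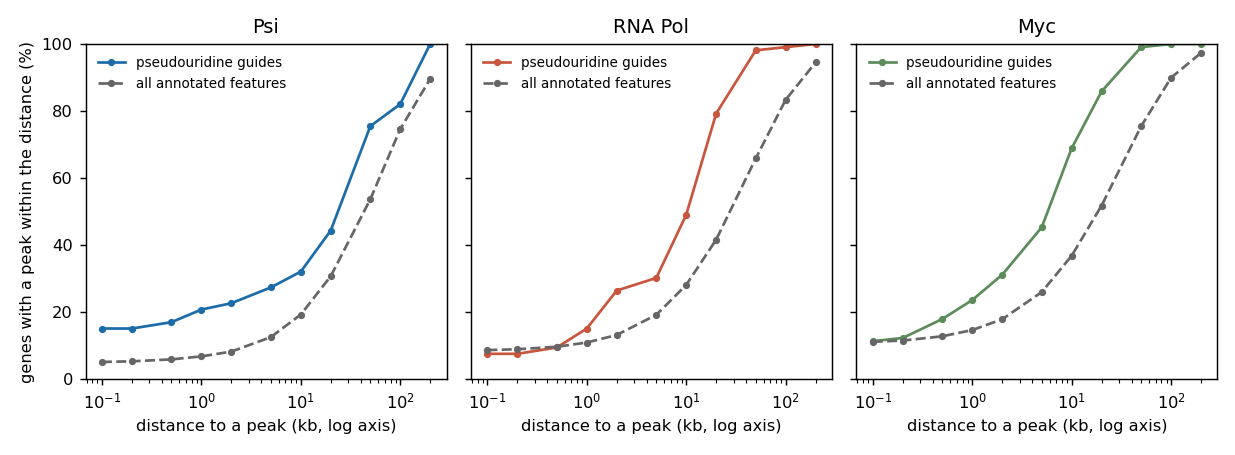
Share of genes (%, vertical axis) with a peak within a given distance (kb, logarithmic axis) in the Psi, RNA Pol and Myc lists, for the 106 pseudouridine guides (solid) and all 23973 annotated features (dashed). For Psi the solid curve lies above the dashed one at every distance drawn, and for RNA Pol and Myc the curves meet at short distances.

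Most Psi peaks at members lay downstream of the host start, and most RNA Pol and Myc peaks at members lay over it. The host start is the 5′ end of its annotated span. Of 11 Psi peaks within 1 kb of members with a host, 1 covered the host start, that of *RpL22*. Of 7 RNA Pol peaks 5 did, and of 13 Myc peaks 10 did. A Psi peak in *RpL3* began 51 bp downstream of the host start, without covering it. Across the whole lists, 11.9% of Psi peaks, 42.4% of RNA Pol peaks and 47.0% of Myc peaks covered the start of a protein-coding gene. Among peaks at members, including that without a host, the same measure gave 1 of 12 for Psi (8.33%), 6 of 7 for RNA Pol (85.7%) and 11 of 14 for Myc (78.6%). The Psi share was thus near that of its whole list. Peaks at members were picked for lying near genes mostly within hosts, whereas the whole lists hold peaks anywhere on the arms. Hosted members with a Myc peak within 1 kb lay a median of 1.44 kb from the host start, against 2.57 kb for those without. Of the 77 without, 43 were in *Arpc2*, *RpS5a* and *dom*, so the medians turn on a few hosts. Since most of these Myc peaks covered the host start, the 1 kb rule itself favours members near that start. For Psi the medians were 2.36 kb with a peak and 2.16 kb without, and for RNA Pol 2.20 kb with a peak and 2.25 kb without.

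The scores of peaks at members were mostly above the middle of their lists. The 12 Psi peaks had a median score of 2.22, against 1.84 for all 1710 Psi peaks, and 9 exceeded the list median. The 7 RNA Pol peaks had a median of 1.59, against 1.24 for the list, and the 14 Myc peaks 3.86, against 2.97. Their ranges were 1.59 to 2.94 for Psi, 1.21 to 1.81 for RNA Pol and 1.95 to 6.1 for Myc.

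Psi peaks lay at a larger share of the guides to 28S rRNA than of the guides to 18S rRNA, and most of the 28S guides with one were in *kra* and *Hrb98DE*. Psi peaks lay within 1 kb of 20 of 60 guides to 28S rRNA (33.3%) and 2 of 46 guides to 18S rRNA (4.35%). The 15 members of *kra* and *Hrb98DE* all guide 28S rRNA. Outside these hosts Psi peaks lay at 5 of 45 guides to 28S rRNA (11.1%). Of the 46 guides to 18S rRNA, 26 lay in *Arpc2*, *RpS5a* and *dom*, whose members had no Psi peak within 1 kb. Members of a host share peaks, so the shares of 18S and 28S guides turn on a few hosts. All members outside *kra* and *Hrb98DE* together had Psi peaks in 7 of 91 (7.69%), near the 6.78% of all annotated features. These 91 include the 43 members of *Arpc2*, *RpS5a* and *dom*, so the share depends on which large hosts are left out. By locus, 7 of 22 with a 28S guide and 2 of 16 with an 18S guide had a Psi peak. For RNA Pol, 12 of 60 (20%) and 4 of 46 (8.70%) members had a peak within 1 kb, and for Myc 14 of 60 (23.3%) and 11 of 46 (23.9%). At least 1 guide for 14 of the 51 guided positions had a Psi peak within 1 kb, for 10 an RNA Pol peak and for 17 a Myc peak.

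Set beside other genes, the members had Psi and Myc peaks less often than methylation guides when genes were counted, but about as often by locus. Psi peaks lay within 1 kb of 20.8% of the 106 pseudouridine guides and 37.7% of the 77 methylation guides, and Myc peaks within 1 kb of 23.6% and 37.7%. The RNA Pol shares were 15.1% and 15.6%. By locus, Psi reached 28.1% of 32 pseudouridine-guide loci and 29.7% of 37 methylation-guide loci, RNA Pol 21.9% and 21.6%, and Myc 43.8% and 40.5%. These are descriptions with no test. Both classes lie in *Nop60B*, *RpL3*, *RpS16*, *Sf3b3*, *Uhg4* and *dom*. In *RpL3*, all 3 methylation guides were within 1 kb of a Psi peak, as Psi28S-291 was. In *Nop60B*, 4 methylation guides lay within 1 kb of a Myc peak and 1 within 1 kb of an RNA Pol peak. Psi18S-1820 had the Myc peak, and its nearest RNA Pol peak was just beyond the limit, at 1090 bp.

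**Figure D5:**
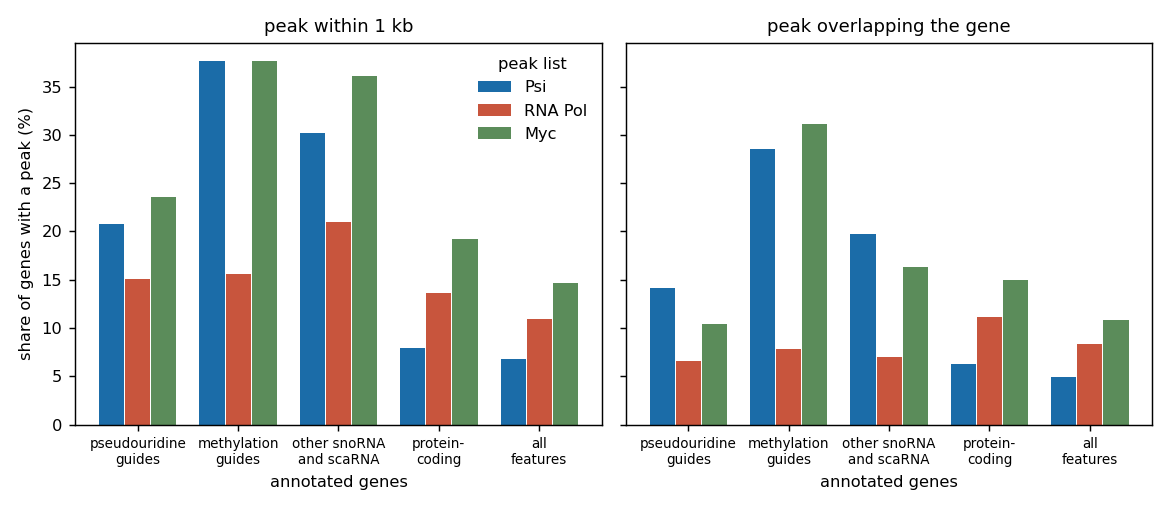
Share of genes with a peak within 1 kb (left) and with a peak overlapping the gene (right), in % on the vertical axis, for the Psi, RNA Pol and Myc lists. Pseudouridine guides reach 20.8% for Psi within 1 kb, against 37.7% of methylation guides and 6.78% of all annotated features.

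Ribosomal protein genes had Psi, RNA Pol and Myc peaks more often than protein-coding genes as a whole, with or without a pseudouridine guide. Of 13 ribosomal protein genes that host a member, 5 had a Psi peak within 1 kb of the host gene, against 18 of the 79 other ribosomal protein genes (22.8%) and 7.92% of all protein-coding genes. For RNA Pol the numbers were 3 of 13 and 20 of 79 (25.3%), against 13.6% of protein-coding genes, and for Myc 9 of 13 and 47 of 79 (59.5%), against 19.2%. Among the 6 genes of the H/ACA particle and its assembly (*Nop60B*, *NHP2*, *Nop10*, *Gar1*, *CG10341* and *CG10055*), none had a Psi peak within 1 kb, a count too small to set against the 7.92% of protein-coding genes. RNA Pol peaks lay at *Nop60B* (score 1.64) and *Nop10* (1.02), and Myc peaks at *Nop60B* (6.12) and *NHP2* (5.11).

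GATC sites set how finely these genes can be resolved. Of the 106 members, 77 held no GATC site, and the GATC-bounded interval that held a member had a median length of 627.5 bp (180 to 1729 bp). The members occupied 80 distinct intervals, and 40 members shared theirs with another. All peak edges in the 3 lists fell on GATC sites of the reference used here. All 15 members overlapped by a Psi peak lay wholly inside it. Since a member, its neighbours and the surrounding intron share intervals and peaks, binding at the snoRNA gene and binding at the host transcript unit cannot be told apart.

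As a check of the tissue, 5 of 7 wing disc genes (*vg*, *nub*, *rn*, *sd* and *dpp*) had an RNA Pol peak within 1 kb, and *ap* and *wg* had none. The share of all protein-coding genes with such a peak was 13.6%, and each marker set is small beside it. Of the markers of other cells, RNA Pol peaks lay at 1 of 3 for myoblasts (*twi*), 0 of 3 for haemocytes, 1 of 2 for trachea (*trh*) and 1 of 3 for neurons (*elav*). The part of such cells in the values above was not tested.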

How the data were processed

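TaDa of Psi, RNA Pol (RpII18) and Myc was carried out in wing discs of female larvae, with groups taken from the sample titles. The description field names an RNAi or control line that does not match the titles, and it was left aside. The authors aligned reads to BDGP6 with Bowtie2 through damidseq_pipeline, took the normalised log2 ratio over Dam alone, averaged 3 replicates, and applied find_peaks with an FDR limit of 1%. The version of each tool was not given in the sources used here. Each list has a score per peak, and the score as deposited has no stated formula and was used only within its list.

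Gene models came from Ensembl (BDGP6 version 54) and sequences from the RefSeq Release 6 genome. Features on the 6 chromosome arms of the lists were used. A gene was taken as having a peak when the peak lay within 1 kb, the distance the study used. The host was the shortest protein-coding, non-coding or pseudogene on the same strand that holds the member, and members without one under 2 kb apart would have formed a locus together. H box and ACA letters were searched on the transcribed strand only, and every 20th window of 140 bases served as the genome set. Copies were aligned globally with biopython 1.88. Calculations used Python 3.11.15, numpy 2.4.6 and pandas 2.3.3, and figures matplotlib 3.10.9. The distance calculation was tested on simulated data. Named genes are every locus with a peak, hosts without one that hold 3 or more members, and the 3 members nearest to a peak beyond 1 kb. Hosts with 1 member and no peak were named after their values were seen. Sequences were shown for the 5 highest loci of each of the Psi and RNA Pol lists, leaving out 2R. The members, lists and rules were chosen with earlier results of these data known. No significance test was run, since each list is an average. Alternatives were an overlap, 500 bp, 2 kb, an FDR of 0.1% and peaks near any part of the host. Replicates could not be left out of an averaged list.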

Additional observations from a re-analysis of the deposited data

How the results depend on the processing

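The number of members within reach of an RNA Pol peak depended most on the distance. It was 16 at 1 kb, 7 for overlaps, 10 at 500 bp and 28 at 2 kb, where 4 further members of *kra* and 3 of *Hrb98DE* came in. The RNA Pol loci numbered 7 at 1 kb, and 3 both with an overlap and at 500 bp. With an overlap, Myc members numbered 11 (25 at 1 kb) and Myc loci 8 (14 at 1 kb). All other alternatives, for all Psi counts, stayed within 1.5 times the value at 1 kb. Psi members ranged from 15 with an overlap to 24 at 2 kb, and were 16 with peaks at an FDR of 0.1%. The members lost at that FDR were all in *Hrb98DE*, and 4 members of *kra* kept a Psi peak within 1 kb but no overlapping one. Psi loci ranged from 7 with an overlap to 12 when the peak could lie near any part of the host. Joining *lncRNA:CR42491* to *RpL22*, an alternative chosen after seeing the data, gave 8 Psi loci. No paired analysis was possible because each deposited list is an average over its 3 samples, and for the same reason no replicate could be left out.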
